A study of Mus musculus with 26 samples.

Results

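The AP-1 and immediate early genes of the mouse dorsal root ganglion (DRG, the cluster of sensory neurons beside the spinal cord) were followed across injury, surgery, culture and genotype. They were chosen by name: *Fos*, *Fosb*, *Fosl1*, *Fosl2*, *Jun*, *Junb*, *Jund*, *Egr1*, *Ier2* and *Arc*. All 10 were among the 55401 genes of the count tables, and all 10 passed the filter on low counts in every comparison, in which 21261 to 23295 genes were tested.

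AP-1 is a dimer of basic leucine zipper proteins, in which a Fos family protein pairs with a Jun family protein or Jun proteins pair with each other or with relatives such as ATF3. Immediate early genes are transcribed within minutes of a stimulus, through factors already present in the cell, and most of their mRNAs decay quickly. In the axotomised sensory neuron *Jun* is known to stay induced for days and is required for efficient axon regeneration, whereas *Fos*, *Egr1* and *Ier2* are also known to respond to the handling and dissociation of tissue.

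The study asked how neuronal deletion of *Ahr*, the gene of the ligand-activated aryl hydrocarbon receptor, bears on the ganglion and its response to nerve injury. Knockout (cKO) mice were Ahr f/f Thy1-CRE(ERT2/EYFP), with a tamoxifen-inducible Cre driven by the neuronal *Thy1* promoter, and controls carried 1 or 2 floxed alleles with no Cre named. Naive and crush mice of both genotypes (n = 3 each) received 100 mg/kg tamoxifen daily for 5 days at 28 weeks of age, and their L4 to L6 ganglia were taken 5 weeks later, those of the crush mice 1 day after sciatic nerve crush. Of the controls in each of these settings, 2 carried 1 floxed allele and 1 carried 2. The remaining settings had no tamoxifen or age in their labels. In the sham setting, ganglia of both sides were taken from 2 male mice per genotype 1 day after surgery, so the ipsilateral and contralateral libraries share mice. In the neuron setting, semi-purified neurons were collected 24 hours after seeding, with n = 3 per genotype. Of the 2 sham controls, 1 carried 1 floxed allele and 1 carried 2, and all neuron controls carried 2. Naive and neuron mice were labelled female, and each crush group 2 female and 1 male. Tissue was taken between ZT2 and ZT4 (hours after lights on).

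Total counts were 20169388 to 23540375 per library in naive and crush ganglia, 39306414 to 58751270 in sham ganglia and 25299938 to 88180611 in neurons. Levels are given as CPM, counts scaled by the TMM-adjusted library total, in all 26 libraries. *Ahr* itself was at 18.0 to 22.8 CPM in naive controls and 21.4 to 26.8 CPM in naive cKO, and its count per gene passed the test for genotype in no comparison, so it does not check the genotype labels. The sex-linked transcripts of 2 of the 26 libraries, crush control replicate 3 and crush cKO replicate 2, went against their labelled sex. Neuronal markers were present in all ganglion libraries, at a summed 5940 to 9790 CPM for 10 genes.

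The proximal promoters of *Jun* and *Fos* are shown because these genes stand for the contrast in the ganglion, *Jun* as the member with the largest change after crush and *Fos* as the one whose value there moved most when 1 library was left out. Each run is the 250 bases before the start site in RefSeq (GRCm38.p6), with motif matches in capitals. *Jun* is on chr4:95049034-95052222 (minus strand, a single exon in GENCODE M21) and *Fos* on chr12:85473890-85477273 (plus strand).
Jun, chr4:95052223-95052472, minus strand: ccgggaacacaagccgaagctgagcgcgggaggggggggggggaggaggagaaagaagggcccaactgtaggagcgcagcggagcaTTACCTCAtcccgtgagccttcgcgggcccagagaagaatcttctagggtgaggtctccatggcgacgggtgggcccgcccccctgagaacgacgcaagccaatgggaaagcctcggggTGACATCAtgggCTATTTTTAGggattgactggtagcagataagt
Fos, chr12:85473640-85473889, plus strand: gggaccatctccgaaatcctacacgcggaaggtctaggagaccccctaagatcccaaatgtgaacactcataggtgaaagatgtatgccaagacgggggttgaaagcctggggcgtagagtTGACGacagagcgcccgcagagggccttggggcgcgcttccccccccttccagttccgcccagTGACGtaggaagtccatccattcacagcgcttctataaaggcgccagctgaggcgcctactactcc
In *Jun* the capitals mark TTACCTCA at 164 to 157 bases before the start, TGACATCA at 45 to 38 and a MEF2 box at 33 to 24. The first pair are the AP-1-like elements through which Jun and ATF2 are known to act on this promoter. In *Fos* the capitals mark TGACG, the core of the cyclic AMP response element, at 129 to 125 and at 66 to 62 bases before the start. Searched on both strands, TTACCTCA occurred in 0.728% of the 32851 RefSeq promoter windows, TGACNTCA in 7.49%, the MEF2 box in 2.92% and TGACG in 17.8%. The search also covered TGANTCA (6.75% of windows), GCGGGGGCG (2.57%) and the CArG box by name (1.47%), none of which matched in these 2 windows. TGACG is part of some matches of the longer element. RefSeq windows were on hand for 6 of the 10 genes. Among the other 4, *Junb* held TGACG at 106 to 102, *Fosb* held TGACG at 60 to 56 and GCGGGGGCG at 50 to 42, and *Fosl2* held GCGGGGGCG at 79 to 71 bases before the start. A match describes letters in a window and not a bound site. Windows were not found for *Fosl1*, *Egr1*, *Ier2* and *Arc*.

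**Figure D1:**
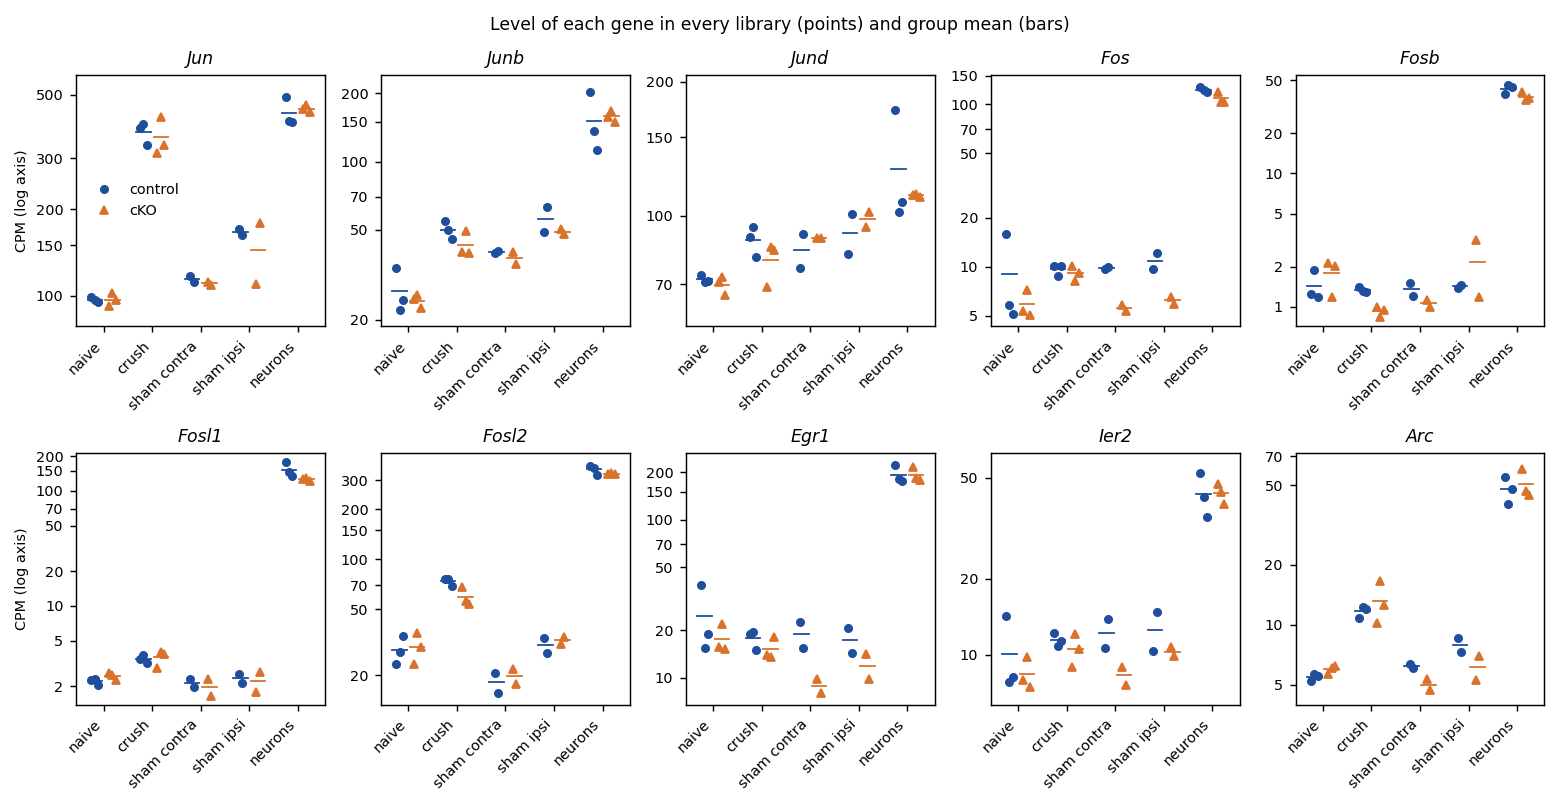
Level of each of the 10 genes in CPM (log axis, one scale per gene) in all 26 libraries by setting, with circles for control and triangles for cKO libraries and a short bar at each group mean. *Jun* in the 6 crush libraries (314 to 417 CPM) lies above all 6 naive libraries (92.1 to 102 CPM), whereas *Fos* in naive control replicate 1 (16.0 CPM) lies above every crush library.

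Crush against naive ganglia in control mice asked which members are raised 1 day after axotomy. *Jun*, *Fosl2*, *Arc*, *Junb*, *Fosl1* and *Jund* were higher, 6 of 10, and none was lower. Over all genes tested, 12.9% were higher and 8.73% lower by the same rule (edgeR's quasi-likelihood test, Benjamini-Hochberg adjusted p under 0.05). The median log2 fold change of the members was 0.47, against -0.018 over all genes. In cKO mice 5 members were higher (*Jun*, *Arc*, *Fosl2*, *Junb* and *Fosl1*) and *Fosb* was lower, against 10.7% of genes higher and 7.89% lower. The members' median there was 0.57 against -0.0046 over all genes. All groups in these comparisons are whole ganglia, in which more RNA per cell and more cells of a type cannot be told apart. Of the marker lists, none of 9 macrophage, 4 neutrophil or 6 myelinating Schwann cell markers passed in either genotype. In cKO mice 2 of 4 red blood cell markers were lower after crush, and the 4 neutrophil markers summed to 164 to 319 CPM naive and 49.2 to 112 CPM after crush. Of 10 neuronal markers 1 was lower in controls and 2 in cKO mice, and of 6 satellite glia markers 2 were higher and 1 lower in controls and 1 higher in cKO mice. In controls 1 of 4 mural cell markers was higher, and 1 of 6 endothelial and 1 of 2 T cell markers were lower. The part of these cells in the members' values was not tested.

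Among the Jun family, *Jun*, whose product c-Jun is the main transactivating subunit, was at 98.8, 96.8 and 94.9 CPM in naive controls and at 383, 396 and 334 CPM after crush. The groups were far apart: the lowest crush library stood above the highest naive one by more than the whole naive level. The log2 fold change was 1.94 (SE 0.0971, 3.83-fold, edgeR adjusted p = 3.13e-07), the 11th smallest p of all genes. In cKO ganglia *Jun* was at 92.1, 102 and 96.6 CPM naive and at 314, 417 and 333 CPM after crush. Its log2 fold change there was 1.86 (SE 0.0970, edgeR adjusted p = 5.97e-07), and the 2 genotypes' values differed by less than their errors.

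*Junb*, a partner that often restrains c-Jun, was at 33.8, 22.0 and 24.4 CPM in naive controls and 54.5, 49.98 and 45.5 CPM after crush. The groups did not overlap, and the first naive library was the highest of its group. Its log2 fold change was 0.91 (SE 0.138, edgeR adjusted p = 0.000692) in controls and 0.80 (SE 0.140, edgeR adjusted p = 0.00183) in cKO mice, where the call was lost with sex by transcripts as a covariate (0.71, adjusted p = 0.056). *Jund*, the member expressed most constantly in resting cells, was at 70.7 to 73.5 CPM in naive controls and 80.6 to 94.3 CPM after crush, a log2 fold change of 0.30 (SE 0.0778, edgeR adjusted p = 0.0176). In cKO mice its value was 0.17 (edgeR adjusted p = 0.173), with overlapping groups. The *Jund* call in controls was lost with limma on the deposited FPKM (log2 fold change 0.23 with a pseudocount of 0.1, adjusted p = 0.0679) and without naive control replicate 3 (0.29, adjusted p = 0.0563), crush control replicate 1 (0.28, adjusted p = 0.0626) or crush control replicate 2 (0.24, adjusted p = 0.0826).

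Among the Fos family, *Fosl2*, which encodes Fra-2, was at 23.5, 27.5 and 34.4 CPM in naive controls and at 76.4, 75.7 and 69.5 CPM after crush. Every crush library was above every naive one. The log2 fold change was 1.38 (SE 0.152, 2.60-fold, edgeR adjusted p = 7.25e-05) in controls. In cKO mice the naive libraries were at 23.5, 35.9 and 29.6 CPM and the crush libraries at 68.0, 56.5 and 54.0 CPM, a log2 fold change of 0.99 (SE 0.152, edgeR adjusted p = 0.000794). The genotype difference of these injury effects was -0.38 (unadjusted p = 0.0971, edgeR adjusted p = 1).

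*Fosl1*, which encodes Fra-1, was at 2.06 to 2.30 CPM in naive and 3.21 to 3.75 CPM in crush controls (log2 fold change 0.65, SE 0.139, edgeR adjusted p = 0.00565). Its counts in the ganglia were low. *Ccdc85b*, which overlaps it on the other strand, had 90.6% to 5910% of its count across libraries (median 1810%), so the *Fosl1* value is uncertain. In cKO mice its change was 0.51 (edgeR adjusted p = 0.0225), a call lost under DESeq2 (adjusted p = 0.0877), without either of 2 naive or 2 crush cKO mice, and in 3 other fits. *Fosb*, which encodes a full-length and a truncated Fos protein, was at 2.13, 1.18 and 2.03 CPM in naive and 0.991, 0.838 and 0.944 CPM in crush cKO ganglia. All crush libraries were below all naive ones, by a log2 fold change of -0.95 (SE 0.252, edgeR adjusted p = 0.0199). The counts behind these values were low, 27 to 49 naive and 17 to 23 after crush. Leaving out naive cKO replicate 1 or 3 or crush cKO replicate 2 or 3 ended that call, with log2 fold changes of -0.81 to -0.98 and adjusted p of 0.0544 to 0.081. In controls *Fosb* was at 1.19 to 1.87 CPM naive and 1.29 to 1.41 CPM after crush (log2 fold change -0.10, edgeR adjusted p = 0.812).

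*Fos*, which encodes the founding partner of Jun, was at 16.0, 5.87 and 5.15 CPM in naive controls and 10.2, 8.76 and 10.2 CPM after crush. The first naive library stood above all crush libraries and the other 2 below them. With all libraries the log2 fold change was 0.12 (SE 0.332, edgeR adjusted p = 0.839). Without naive control replicate 1 it was 0.82 (SE 0.157, 1.77-fold, edgeR adjusted p = 0.00423). In cKO mice *Fos* was at 5.36, 7.20 and 5.08 CPM naive and 10.1, 8.18 and 9.24 CPM after crush, groups that did not overlap. The log2 fold change there was 0.63 (SE 0.344, edgeR adjusted p = 0.245). It passed when only the 2 cKO groups were fitted, at the same size (SE 0.148, edgeR adjusted p = 0.0234), where the spread of the control libraries no longer entered.

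Of the 3 members outside AP-1, *Arc*, a neuronal effector gene of synaptic plasticity, was at 5.19, 5.62 and 5.50 CPM in naive controls and 10.8, 12.3 and 12.04 CPM after crush. The groups were separate, with a log2 fold change of 1.11 (SE 0.143, edgeR adjusted p = 0.000216). In cKO mice *Arc* was at 5.66 to 6.22 CPM naive and 10.2 to 16.5 CPM after crush, also 1.11 (edgeR adjusted p = 0.000232). *Egr1*, a zinc finger factor, was at 39.0, 15.5 and 19.1 CPM in naive controls and 19.1, 19.6 and 15.1 CPM after crush (log2 fold change -0.45, SE 0.283, edgeR adjusted p = 0.297). Without naive control replicate 1 the *Egr1* value was 0.05 (SE 0.182, edgeR adjusted p = 0.892). *Ier2*, a small nuclear protein induced with *Fos*, was at 14.2, 7.79 and 8.20 CPM naive and 12.2, 10.8 and 11.3 CPM after crush (log2 fold change 0.19, edgeR adjusted p = 0.556). Without the same naive library the *Ier2* value was 0.51 (SE 0.139, edgeR adjusted p = 0.0249). In cKO mice *Egr1* (-0.22) and *Ier2* (0.30) did not pass.

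With naive control replicate 1 left out, 8 of 10 members were higher after crush in controls, *Fos* and *Ier2* joining the 6, against 10.7% of genes. That library was the highest naive control for *Fos* and *Ier2* (16.0 and 14.2 CPM), so leaving it out had to raise their values. Without naive control replicate 2 or 3 *Fos* was at -0.11 or -0.16, with 6 or 5 members called among 4072 or 3592 genes. *Jun* kept its size (1.95, edgeR adjusted p = 4.12e-06), *Fosl2* was at 1.25 and *Junb* at 1.11. In cKO mice the count of members called was 3 rather than 6 when sex as read from transcripts was a covariate. The calls lost were *Junb* (0.71, edgeR adjusted p = 0.056), *Fosb* (-0.86, adjusted p = 0.225) and *Fosl1* (0.21, adjusted p = 0.622). Of the crush cKO libraries 1 of 3 was female by transcripts, as were all naive libraries. The genes called in all went from 3962 to 1414 (6.65%) with the same covariate. Sex and crush cannot be fully told apart in that comparison.

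**Figure D2:**
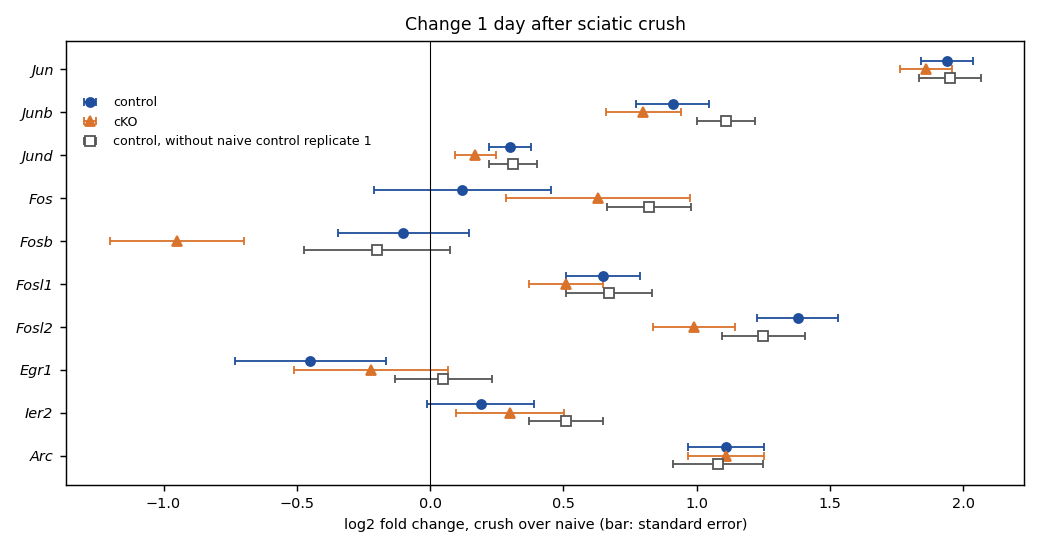
Log2 fold change of crush over naive ganglia for each gene, with standard errors, in control mice (circles), cKO mice (triangles) and control mice without naive control replicate 1 (open squares). *Jun* is near 1.9 in all 3 estimates, while *Fos* moves from 0.12 to 0.82 in controls when that library is left out.

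Variation between replicate mice, which also enters the test, differed from gene to gene. *Fos* had a within-group SD of 0.471 on the log2 CPM scale over the 12 naive and crush libraries, higher than 93.9% of the genes tested. *Egr1* was at the 91.0 percentile, *Fosb* at 83.3 and *Ier2* at 81.2. These ranks are over genes of all levels, and counting noise widens the SD at low counts. *Fosb* had 17 to 49 counts and *Fosl1* 52 to 93 in these libraries, and the part of counting noise was not tested. *Fosl2* was at 73.1, *Junb* at 68.3, *Arc* at 64.9 and *Fosl1* at 56.1. *Jun* had an SD of 0.127, at the 48.1 percentile, and *Jund* was at 36.3. Without naive control replicate 1 the percentile of *Fos* was 67.2, that of *Egr1* 76.5 and that of *Ier2* 61.8, while *Fosb* was at 85.0. *Fos* and *Ier2* were then below *Fosl2* (70.7) and *Arc* (68.3), and *Fosl1* was at 60.5, *Jun* at 53.7, *Junb* at 51.2 and *Jund* at 42.8.

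Naive control replicate 1 stood above the mean of the other 2 naive controls by 2.86-fold for *Fos*, 2.25-fold for *Egr1*, 1.76-fold for *Ier2* and 1.45-fold for *Junb*. For *Fos* this exceeded the same ratio in 98.4% of genes. *Jun* (1.03-fold), *Jund* (1.03-fold) and *Fosl1* (1.04-fold) were level with the other libraries, and *Fosl2* (0.760-fold) and *Fosb* (0.839-fold) were lower. Of 38 other immediate early genes, 4 were at least 1.5-fold above (*Klf4*, *Inhba*, *Ptgs2* and *Socs3*), as were 0 of 11 heat shock genes and 6.81% of all genes. The same library had the highest summed level of 4 neutrophil markers, 613 CPM against 98.8 and 155 CPM in the other naive controls and 49.2 to 352 CPM in the other 9 naive and crush libraries. Its 9 macrophage markers summed to 632 CPM against 291 and 438 CPM. The 10 genes in which it stood farthest above the other naive controls were read among genes with a mean of at least 1 CPM. They included *Elane*, *Mpo*, *Fcnb*, *Epx* and *Ctsg*, granule or secreted proteins of bone marrow myeloid cells, and *Myh1*, a skeletal muscle myosin. These genes were named after their values were seen. The part of these cells in the *Fos* level was not tested.

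Whether *Fos* rises and falls with each other member and with *Atf3* was measured on deviations from group means over the 12 naive and crush mice. These 10 relations were given an exact permutation test within groups (1296 arrangements, two-sided). The largest coefficients were with *Egr1* (Pearson's r = 0.85, exact permutation p = 0.0756, adjusted p = 0.319; Spearman's rho = 0.74, p = 0.0725), *Ier2* (r = 0.83, exact permutation p = 0.0957, adjusted p = 0.319; rho = 0.67, p = 0.104) and *Junb* (r = 0.70, exact permutation p = 0.219, adjusted p = 0.548; rho = 0.48, p = 0.248). With *Jun* the value was -0.035 (exact permutation p = 0.828, adjusted p = 0.993; rho = -0.11, p = 0.691). None of the 10 passed after adjustment, and the lowest unadjusted exact permutation p was 0.0378, for *Arc* (r = -0.32, adjusted p = 0.319). Without the 2 libraries farthest in *Fos*, naive control replicates 1 and 3, r was 0.69 for *Egr1*, 0.52 for *Ier2* and 0.32 for *Junb*. Within the 6 naive mice r was 0.95, 0.98 and 0.94, and within the 6 crush mice -0.10, -0.48 and -0.54. None of these 6 values passed (lowest exact permutation p = 0.0833, where the smallest possible was 0.0278), the naive values include naive control replicate 1, and the difference between settings was not tested. For *Jun* r was 0.52 in naive mice (exact permutation p = 0.167) and -0.86 in crush mice (p = 0.0833), and for *Jund* 0.55 (exact permutation p = 0.0278, unadjusted, the smallest possible) and -0.80 (p = 0.139).

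**Figure D3:**
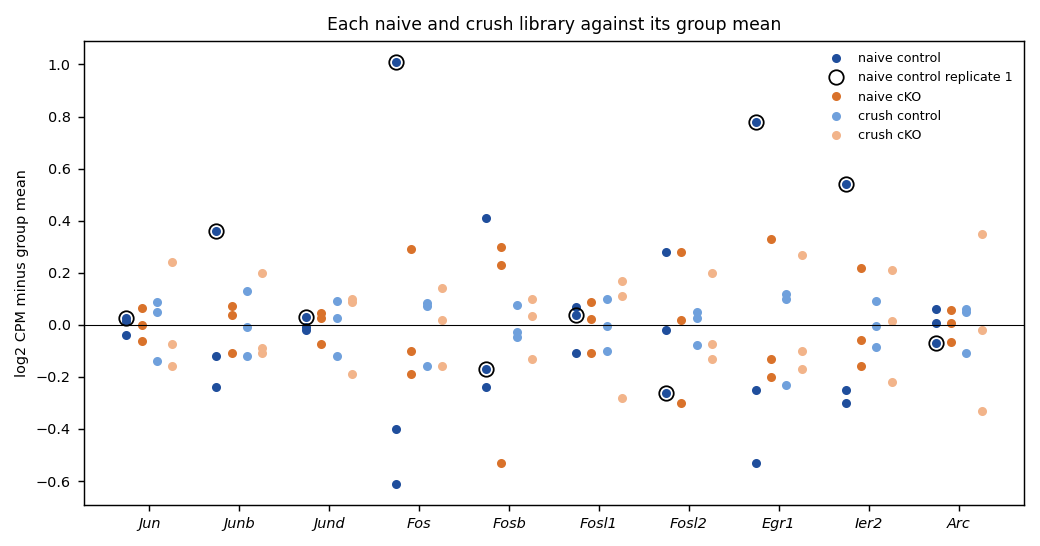
Deviation of each naive and crush library from its group mean in log2 CPM, for the 10 genes, with colours for the 4 groups and a ring around naive control replicate 1. The ringed library is highest for *Fos* (1.01), *Egr1*, *Ier2* and *Junb*, and within 0.1 of its group mean for *Jun*, *Jund* and *Fosl1*.

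The composition of the AP-1 transcripts was compared per exon length, as each gene's share of the summed CPM per exon kilobase of the 7 Fos and Jun genes. *Jun* held 31.6% of this sum in naive controls (29.7% to 33.1%, n = 3) and 55.2% after crush (54.7% to 56.0%). *Jund* held 44.8% naive (42.3% to 46.2%) and 25.1% after crush (24.6% to 25.5%). The 4 Fos family genes together held 8.32% naive (7.38% to 10.1%) and 6.52% after crush (6.13% to 6.95%). In cKO ganglia *Jun* went from 32.8% to 57.1%. In cultured neurons the Fos family held 36.9% in controls (33.5% to 38.9%) and 33.5% in cKO (32.7% to 34.4%), and *Fosl1* alone held 16.2% and 14.1%. These shares are descriptive, and all of them carry the doubt over reads shared with neighbours on the other strand. *Junos* had 14.5% to 19.8% of the *Jun* count, *Gm11175* 48.3% to 60% of the *Jund* count and *Ccdc85b* 90.6% to 5910% of the *Fosl1* count. *Prdx2*, at 92.8% to 970% of the *Junb* count, overlaps *Junb* by 351 bases in GENCODE M21, where the *Junb* span is longer than that of the files (4235 against 1809 bp). How many reads were shared was not tested.

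**Figure D4:**
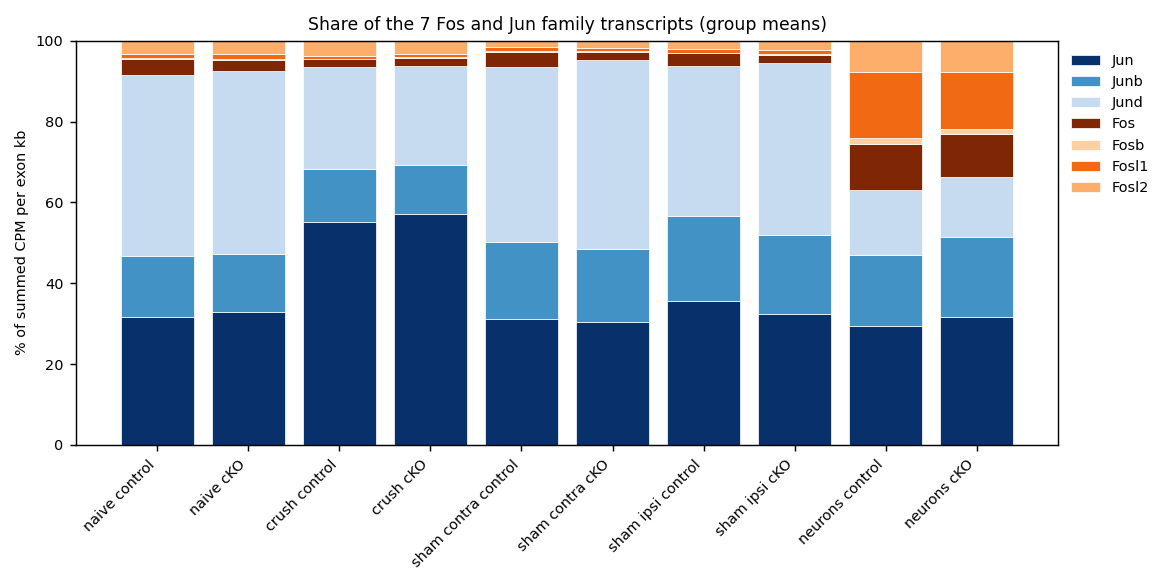
Share of each Fos and Jun family gene in the summed CPM per exon kilobase of the 7 genes, as group means stacked to 100%, in blue for the Jun family and in orange and brown for the Fos family. *Jun* is at 31.6% in naive and 55.2% in crush controls, and the Fos family reaches 36.9% in control neurons.

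Sham surgery placed the ganglia of the operated side beside those of the other side in the same 4 mice. No member passed the test between sides (edgeR's quasi-likelihood test), against 0.00451% of genes (1 of 22160). At an unadjusted p under 0.05 there were 4 members and 1675 genes, DESeq2 called 3 members among 200 genes (0.903% of those tested), and edgeR without a filter on low counts called 3 among 381 genes (1.09%). The log2 fold changes were above 0 for all 10, with a median of 0.27 against 0.0081 over all genes.

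*Fosl2* was at 33.5 CPM ipsilateral against 20.8 CPM contralateral and 27.1 against 15.7 CPM in the 2 control mice, and at 30.8 against 21.9 CPM and 34.2 against 17.8 CPM in the cKO mice. The operated side was higher in 4 of 4 mice, by a log2 fold change of 0.75 (SE 0.124, unadjusted p = 0.000362, edgeR adjusted p = 0.211). *Junb* was also higher on the operated side in 4 of 4 mice, by 1.24-fold to 1.57-fold (log2 fold change 0.46, SE 0.0825, edgeR adjusted p = 0.238). *Jun* was at 171 against 117 CPM, 163 against 112 CPM, 110 against 112 CPM and 179 against 109 CPM, in the order control mice 1 and 2 and cKO mice 1 and 2. The sides differed in 3 of the 4 mice and were level in cKO mouse 1 (log2 fold change 0.49, SE 0.133, edgeR adjusted p = 0.475). Without that mouse the *Jun* value was 0.65 (SE 0.0633, edgeR adjusted p = 0.0439), the only member called, and 41 of 23052 genes (0.178%) were called rather than 1. Without any other mouse no member and at most 1 gene was called. These tests did not pair the sides by mouse. With the mouse as a block 0 members and 0 genes were called, and the adjusted p was 0.122 for *Fosl2* and *Junb* and 0.32 for *Jun*. *Atf3*, the AP-1 relative most used as a mark of axotomised neurons, was lowest on the operated side in the same mouse, 44.5 CPM against 89.9 to 190 CPM in the other 3, and at 11.01 to 13.4 CPM on the other side in all 4. *Fos* was at 9.69 against 9.67 CPM in control mouse 1, at 12.1 CPM in control mouse 2, 1.21 times the level of its other side, and at 6.55 against 5.80 CPM and 5.92 against 5.39 CPM in cKO mice (log2 fold change 0.17, edgeR adjusted p = 0.77). The side effect did not differ by genotype for any member under edgeR, with 0% of genes called and 0 members and 904 genes at an unadjusted p under 0.05.

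**Figure D5:**
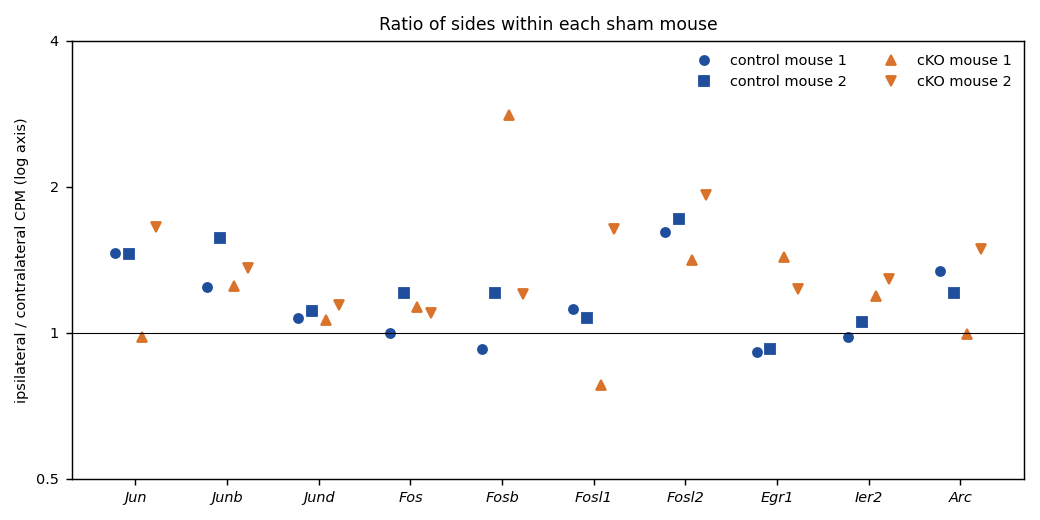
Ratio of ipsilateral to contralateral CPM (log axis) within each of the 4 sham mice for the 10 genes, with 1 symbol per mouse. *Fosl2* and *Junb* lie above 1 in all 4 mice, and *Jun* lies above 1 in 3 and at 0.981 in cKO mouse 1.

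Comparisons of cKO with control asked whether the deletion changed these genes in any setting. No member passed in naive ganglia (0.00941% of genes called), crush ganglia (0.00941%), neurons (0%), ipsilateral sham ganglia (0.00451%) or contralateral sham ganglia (0%), by edgeR's quasi-likelihood test. At an unadjusted p under 0.05 there were 0, 0, 2, 1 and 3 members in that order, beside 1232, 579, 1863, 1682 and 1160 genes. DESeq2 called 0, 0, 0, 1 and 2 members, against 0.0141%, 0.00941%, 0.792%, 0.704% and 0.143% of all genes. The genotypes' injury responses did not differ for any member (0% of genes called), with *Fosb* at an unadjusted p of 0.0329 (log2 difference -0.85, SE 0.353, edgeR adjusted p = 1) among 627 genes under 0.05.

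In naive ganglia *Fos* was at 16.0, 5.87 and 5.15 CPM in controls and 5.36, 7.20 and 5.08 CPM in cKO mice, a log2 fold change of -0.60 (SE 0.343, edgeR adjusted p = 0.754) that was 0.10 (SE 0.160) without naive control replicate 1. *Egr1* moved likewise from -0.46 to 0.037. *Jun* was at 94.9 to 98.8 CPM in controls and 92.1 to 102 CPM in cKO mice (0.012, SE 0.0955). By transcripts 3 of 3 crush control and 1 of 3 crush cKO libraries were female. Sex and genotype therefore cannot be fully told apart after crush, or in the genotype differences of the injury effects. In crush ganglia *Fosl2* was at 69.5 to 76.4 CPM in controls and 54.0 to 68.0 CPM in cKO mice, groups that did not overlap (log2 fold change -0.32, SE 0.147, unadjusted p = 0.0523, edgeR adjusted p = 1). *Fosb* was likewise lower without overlap after crush, at 1.29 to 1.41 CPM in controls and 0.838 to 0.991 CPM in cKO mice (-0.53, SE 0.261, edgeR adjusted p = 1).

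In sham ganglia *Fos* was lower in each cKO library than in each control library on both sides. On the operated side it was at 9.69 and 12.1 CPM in controls and 6.55 and 5.92 CPM in cKO mice (log2 fold change -0.76, SE 0.134, unadjusted p = 0.000517, edgeR adjusted p = 0.498). On the other side it was at 9.83 ± 0.236 CPM (SD, n = 2) in controls, the lower at 9.67 CPM, and at 5.80 and 5.39 CPM in cKO mice (-0.82, SE 0.135, unadjusted p = 0.000359, edgeR adjusted p = 0.788). The sides come from the same 2 mice per genotype and are no independent repeat. Neutrophil markers summed to 250 to 527 CPM in cKO and 136 to 186 CPM in control libraries of the operated side, and to 219 to 300 and 187 to 205 CPM on the other. Neuronal markers were lower in cKO on the operated side (8670 to 8740 against 8970 to 9620 CPM) and higher on the other (9640 to 9790 against 8790 to 9260 CPM). The part of these cells in the *Fos* difference was not tested. DESeq2 called both (adjusted p = 0.0136 and 0.0238), as did edgeR without a filter on low counts (adjusted p = 0.00408 and 0.0158), where 1.79% and 0.168% of genes were called. *Egr1* on the other side was at 22.6 and 15.5 CPM in controls and 9.84 and 7.99 CPM in cKO mice (-1.10, SE 0.269, edgeR adjusted p = 0.88, DESeq2 adjusted p = 0.00504). *Ier2* there was at 10.6 and 13.9 CPM and at 8.95 and 7.63 CPM (-0.57, SE 0.191, edgeR adjusted p = 0.88). In the neurons *Fos* was at 119 to 127 CPM in controls and 103 to 119 CPM in cKO libraries (-0.18, SE 0.0782, edgeR adjusted p = 0.626). *Fosb* was at 39.1 to 46.0 and 35.3 to 40.6 CPM, groups that overlapped (-0.21, SE 0.0826, unadjusted p = 0.033, edgeR adjusted p = 0.598), and *Fosl1* at 134 to 179 and 123 to 129 CPM (-0.28, SE 0.113, unadjusted p = 0.038, edgeR adjusted p = 0.602).

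The cultured neurons were set against naive ganglia of the same genotype label. Of the naive controls 2 carried 1 floxed allele and 1 carried 2, while all 3 neuron controls carried 2. All 10 members were higher in both genotypes, where 41.7% of genes were higher in controls and 42.0% in cKO mice. The members' median log2 fold change was 3.07 in controls and 3.27 in cKO mice, against -0.016 and 0.015 over all genes. Culture, table, depth and cell composition cannot be told apart in this comparison. The same holds for age and tamoxifen, which the neuron labels do not give, and in controls for the number of floxed alleles. Of the neurons' markers, 7 of 10 were lower and 3 higher in each genotype. All 6 myelinating Schwann cell markers were lower (median -5.30 in controls) and all 6 endothelial markers higher (median 3.36 in controls). The part of other cells in these levels was not tested.

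*Fosl1* had the largest difference of the members, from 2.27, 2.30 and 2.06 CPM in naive control ganglia to 179, 146 and 134 CPM in control neurons. No value of one group came near the other, and the log2 fold change was 6.13 (SE 0.127, 69.9-fold, edgeR adjusted p = 3.78e-12). *Fosb* followed, from 1.19 to 1.87 CPM up to 39.1 to 46.0 CPM (4.93, SE 0.184, edgeR adjusted p = 1.7e-10). *Fos* went from 5.15 to 16.0 CPM up to 119 to 127 CPM (3.79, SE 0.319, edgeR adjusted p = 2.42e-07; 4.45 without naive control replicate 1) and *Fosl2* from 23.5 to 34.4 CPM up to 323 to 365 CPM (3.62). *Arc* (3.14), *Egr1* (2.99), *Junb* (2.50), *Jun* (2.17) and *Ier2* (2.11) were lower in the order, and *Jund* was last (0.84, SE 0.156, edgeR adjusted p = 0.000306). In cKO libraries the order began with *Fosl1* (5.68), *Fosb* (4.40) and *Fos* (4.21) and also ended with *Jund* (0.67).

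Across the 10 groups every member had its 2 highest group means in the neurons, and the order of the ganglia differed by gene. *Jun* ran from 96.8 ± 1.93 CPM (SD, n = 3) in naive controls through 110 ± 2.48 and 114 ± 3.14 CPM (n = 2 each) in contralateral sham ganglia and 145 ± 49.1 and 167 ± 5.53 CPM in ipsilateral ones to 355 ± 55.0 and 371 ± 32.7 CPM (n = 3 each) after crush. The control neurons were at 432 ± 49.5 CPM (n = 3) in a range from 402 to 489 CPM, above the crush controls at 334 to 396 CPM. For *Fos* the 8 ganglion groups ran from 5.60 ± 0.288 CPM (contralateral sham cKO, n = 2) to 10.9 ± 1.68 CPM (ipsilateral sham control, n = 2), each overlapping the next, and the neurons stood apart at 109 ± 8.84 (cKO) and 123 ± 3.80 CPM (n = 3 each). Sham and crush ganglia come from different tables and mice of different labelled treatment, so these levels were not tested against each other.

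Genes around AP-1 were counted from 5 lists, to be read against the 12.9% of genes higher and 8.73% lower after crush in controls and the median of -0.018 over all genes. Of 38 tested other immediate early genes, 17 were higher and 1 lower after crush in controls, with a median log2 fold change of 0.47. *Atf3* went from 12.8 ± 0.845 to 638 ± 73.8 CPM (SD, n = 3; log2 fold change 5.64, edgeR adjusted p = 3.47e-08), the smallest p of all genes tested. *Bdnf*, a neurotrophin, rose by 1.65 and *Csrnp1* by 2.14, and *Dusp5*, a nuclear phosphatase of ERK, fell by 0.37 on the log2 scale. Of 19 AP-1 partners of the basic leucine zipper family, 9 were higher and 2 lower (median 0.17). They included *Atf3*, *Mafk* (0.90) and *Atf4*, the translation-controlled stress factor (0.65), and on the lower side *Mafa* (-1.23) and *Jdp2*, a repressor of AP-1 (-0.37).

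Of 31 kinases and factors upstream of AP-1, 6 were higher and 1 lower (median 0.0029). *Crem* (1.11), *Mapk14*, which encodes the kinase p38 alpha (0.51), and *Creb1* (0.74) were higher, and *Mef2c* was lower (-0.75). Of 17 genes known as targets of AP-1 or c-Jun, 8 were higher and none lower (median 0.53). The smallest p were those of *Cd44* (1.25), *Itga7*, an integrin of regenerating axons (1.94), and *Plaur*, the urokinase receptor (2.70), while *Sprr1a* (5.39) and *Il6* (4.26), named after their values were seen, had the largest fold changes. Of 11 heat shock genes 4 were higher and none lower (median 0.18), with *Hspa5* at 0.74, *Hspb1* at 0.98 and *Dnajb1* at 0.46. In cKO mice the counts higher and lower were 17 and 2, 8 and 2, 6 and 5, 10 and 1, and 4 and 0 in the same order of lists, where 10.7% of all genes were higher and 7.89% lower. In control neurons against naive ganglia they were 34 and 2 of 40, 11 and 5 of 20, 14 and 13 of 31, 16 and 1 of 18, and 11 and 0 of 11, where 41.7% of all genes were higher and 41.6% lower.

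The genes most like *Jun* and *Fos* were read from Pearson's r over 18554 genes with a mean of at least 1 CPM, as a description. On deviations from group means in 26 libraries the gene nearest *Jun* was *Junos* (0.910), which overlaps it on the other strand. *Igfbp3* (0.907), *Tnfrsf12a* (0.883), *Cdkn1a* (0.877) and *Gadd45a* (0.872) came next. Those nearest *Fos* were *Cmbl* (0.864), *Hmgb2* (0.858), *Atp2a3* (0.856), *Fbxo5* (0.846) and *Stxbp2* (0.836), with *Ier2* at rank 77 (0.73), *Egr1* at 126 (0.70), *Junb* at 839 (0.53) and *Jun* at 10688 (-0.059). On the 10 group means, in which the neurons dominate, those nearest *Fos* included *Pdgfb*, *Ier2*, *Esam* and *Sox10* (0.993 to 0.995), and those nearest *Jun* were *Junos*, *Gm26658*, *Sema6a*, *Surf6* and *Gsdma* (0.992 to 0.997). Depth differed between the libraries, which these coefficients do not separate. *Fos* stood 1.01 above its group mean in naive control replicate 1 and at most 0.29 above it in the other naive and crush libraries. *Jun* was spread most within the ipsilateral sham cKO group, at 110 and 179 CPM. How far the coefficients rest on these libraries was not tested.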

How the data were processed

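Messenger RNA of dorsal root ganglia and cultured neurons was sequenced in 26 libraries from 22 animals (RNeasy Plus Mini, TruSeq Stranded mRNA, per the labels' protocols). The authors deposited whole-number counts per gene in 2 tables (12 naive and crush libraries, 14 neuron and sham libraries) and FPKM tables of the same libraries. Trim Galore, HISAT2, featureCounts and mm10 are named, without versions, per the submitters' processing notes; the strand setting is not given in the sources used here. The deposited FPKM used gene spans with introns (within 0.1% of GENCODE M21 for 99.3% of 34340 genes with counts). *Tsix* had 100% to 100.3% of the *Xist* count in 16 libraries, so this overlapping pair shared reads on both strands. The files' *Junb* span is 1809 bp against 4235 bp in GENCODE M21. Symbols were matched for 55141 of 55401 genes.

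Counts were tested with edgeR 4.0.16 (R 4.3.3; quasi-likelihood, filterByExpr with a minimum count of 10, TMM factors), two-sided, Benjamini-Hochberg adjusted over all genes tested and called under 0.05, in 4 fits: naive with crush, neurons, sham, and neurons with naive. The SE is the log2 fold change over the square root of F. CPM levels used 1 TMM scaling of the 26 libraries, with deviations and within-group SDs on log2 CPM with a prior count of 2. Covariation used exact permutations. The fits were tested on simulated counts.

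The members, lists and tests were chosen with earlier results of these data known. Named are the 10 members and *Ahr*, per list the 3 smallest p in each direction after crush in controls, and the 5 genes most like *Fos* and *Jun*, of which 1 is not reported here. Alternatives were DESeq2 1.42.0, RLE factors, other filters, robust dispersion, limma 3.58.1 on log2(FPKM + 0.1) and log2(FPKM + 1), a threshold of 0.1, sex or replicate number as covariates, fitting only the groups compared, and leaving out each mouse. Mice are separate animals per the labels. Both sides of a sham mouse share the mouse number in the labels, which entered only an alternative fit as a block (r of their deviations 0.229 in control and -0.159 in cKO mice). No pair of libraries within a group was a copy (chi-square per degree of freedom 3.32 to 39.9).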

Additional observations from a re-analysis of the deposited data

Results flagged for a closer look

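*Arc* was the only member whose cKO effect ran in opposite directions in 2 settings with every library on its own side. In naive ganglia each cKO library (5.66 to 6.22 CPM) was above each control library (5.19 to 5.62 CPM), a log2 fold change of 0.15 (SE 0.148). In sham ganglia each cKO library was below each control library of the same side, by -0.34 (SE 0.168) on the operated side and -0.32 (SE 0.171) on the other side. None of the 3 effects passed the test, the sham sides share mice, and the difference between the settings was not tested. Such separation rests on 3 libraries a group in naive and 2 in sham ganglia, and its share over all genes was not counted. Naive mice were labelled female and given tamoxifen, and sham mice were labelled male with no tamoxifen named.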

How the results depend on the processing

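Of the 32 member fold changes that passed, 508 of 528 alternatives kept the call and its direction, 20 lost the call and 0 reversed. Of the 35 that did not pass and were followed, 545 of 571 alternatives gave the same, 18 passed and 8 reversed. The cause of each change was not tested.

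The count of members called after crush was 5 to 8 in controls and 4 to 7 in cKO mice when 1 library was left out (among 3116 to 4072 and 2660 to 3747 of all genes), and 3 in cKO mice with sex by transcripts as covariate. Between sham sides it was 3 instead of 0 with DESeq2 or without a filter, and 0 to 1 when 1 mouse was left out (among 41 of 23052 genes without cKO mouse 1, and 0 to 1 without any other). With the numbers of the cKO mice crossed, an alternative chosen after seeing the data, it was 1, among 15 of 22160 genes. For cKO against control it was 1 on the operated side and 2 on the other side with DESeq2 or without a filter, and 0 in the 3 other settings in every alternative. In culture it was 10 throughout.

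Reversed were *Jund* in cKO mice after crush with sex by transcripts as covariate (-0.028), and, when 1 library was left out, *Fos* (-0.16 to 0.82), *Egr1* (-0.69 to 0.05) and *Fosb* (-0.23 to 0.14) after crush in controls, *Fos* (-0.88 to 0.10) and *Egr1* (-0.69 to 0.037) for cKO in naive ganglia, and, when 1 mouse with both its sides was left out, *Fosl1* between sham sides (-0.09 to 0.44). Among correlations with *Fos*, *Fosl1* (0.003) was -0.012 and *Jund* (0.01) was -0.013 with RLE factors. Without the 2 libraries farthest in *Fos* they were -0.40 and -0.21, and *Fosl2* (-0.35) was 0.50.

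With the replicate number as a block 6 members were called after crush in each genotype (among 4390 genes in controls and 3707 in cKO mice, of 21261), and no call of a member changed under the replicate block. The numbers did not pair the naive and crush libraries (18 same-numbered pairs between the 4 groups, r -0.418 to 0.412, 4 above 0.1) or neuron libraries (0.0642 to 0.221). With 2 or 3 mice a group, differences below the replicate spread may have gone undetected.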
